A study of Mus musculus with 6 samples.

Results

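The 44 genes described here encode nuclear receptors, the transcription factors through which steroids, thyroid hormone, retinoids, bile acids, oxysterols, fatty acids and foreign compounds act on genes. They were taken by symbol from the 52550 genes listed per sample, and all 44 were found. The clock receptors Nr1d1 and Nr1d2 were left out. No cut on a measured value was used, but the list was chosen with earlier results of these data known. Of the 44 genes, 8 are xenobiotic and lipid sensors and 36 are other receptors.

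RNA was measured in colon epithelium released by 20 minutes in EDTA and DTT. There were 3 Zfp90fl/fl samples, called fl/fl below, and 3 Zfp90ΔIEC samples, called ΔIEC below. All 6 samples came from male C57BL/6 mice, with an age of 6 to 8 weeks in the labels. The paper puts the injection below at 8 weeks of age, so the mice were older when killed. They were given 1 injection of 10 mg/kg azoxymethane, a carcinogen. From 5 days later they had 3 cycles of dextran sulfate sodium, which injures the colon, in the drinking water. It was at 2% by the labels and another percentage by the methods. Each cycle was of 7 days with 14 days of plain water after it. The mice were killed on day 80. Both genotypes carry the floxed allele, in which loxP sites surround exon 4 and the 3′ end of Zfp90, a gene for a zinc finger protein. Only ΔIEC mice carry Villin-cre, which is active in epithelial cells of the small intestine and the colon, so the gene is kept in all other cells. The 2 genotypes were housed apart after weaning, so cage and genotype cannot be told apart. In the labels the genotype field of ΔIEC replicates 2 and 3 has another number after Zfp, and these samples were grouped by their titles. The labels do not say whether a sample was 1 mouse or a pool, so the p-values below measure the spread between these samples.

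A nuclear receptor joins a DNA-binding domain of a pair of zinc fingers to a ligand-binding domain. On binding its ligand, the second domain exchanges corepressors for coactivators. Many members pair with a retinoid X receptor (RXR), steroid receptors pair with themselves, and orphan receptors work with no known regulatory ligand. In the intestine, HNF4 proteins maintain the enterocyte program, FXR (gene Nr1h4) senses bile acids, PXR (Nr1i2) senses foreign compounds, the PPARs sense fatty acids, and VDR directs calcium uptake.

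The P-box, a stretch of the first zinc finger that reads the DNA half-site, is shown because it sorts the receptors into groups. It does not tell the receptors within a group apart. Each line below holds 24 coding bases of GRCm38 (GENCODE M21 transcripts), 5′ to 3′ on the gene's strand, and capitals mark the 5 codons of the P-box.
Hnf4a: tgtGACGGCTGCAAGGGGttcttc
Hnf4g: tgtGATGGCTGCAAAGGCtttttc
Vdr: tgtGAAGGCTGCAAGGGTttcttc
Nr1i2: tgtGAAGGATGCAAGGGGtttttc
Rxra: tgtGAGGGCTGCAAGGGCttcttc
Nr2f6: tgcGAGGGCTGCAAGAGTttcttc
Esrra: tgtGAGGCCTGCAAAGCCttcttc
Nr3c2: tgcGGCAGCTGCAAAGTCttcttc
They lie within coding exons at chr2:163551690-163551713 (+, Hnf4a), chr3:3638169-3638192 (+, Hnf4g), chr15:97884796-97884819 (−, Vdr), chr16:38265916-38265939 (−, Nr1i2), chr2:27741787-27741810 (+, Rxra), chr8:71381029-71381052 (−, Nr2f6), chr19:6920079-6920102 (−, Esrra) and chr8:77085627-77085650 (+, Nr3c2). The window was found in 42 of the 44 receptors and not in Nr0b1 and Nr0b2, which lack the DNA-binding domain. In 25 of the 42 it encodes the same P-box residues as in Nr1i2, among them Vdr, Rxra and Nr4a1, and the windows of Rxra, Nr1i3 and Nr4a1 differ by 0 of 24 bases. The 2 HNF4 windows differ by 4 bases and encode the same residues. The P-box of Nr3c2 is shared, as residues, with Nr3c1 and Pgr, that of Esrra with the other ERR genes, and that of Nr2f6 with the other COUP-TF genes. The 3 receptors with the highest levels below, Hnf4a, Nr4a1 and Vdr, thus hold 2 of the 9 kinds of P-box found.

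The deposited values are FPKM, fragments normalised for transcript length and for the number of mapped fragments. Depth was not given and was estimated at 26.1 to 28.7 M fragments per sample, from the steps in which low values rise. Of 11564 genes that reached 1 FPKM in no fewer than 3 samples, 23 differed between the genotypes at an adjusted p under 0.05 (limma on log2(FPKM + 1), Benjamini-Hochberg), 8 of them higher and 15 lower in ΔIEC. Zfp90 itself had 0.630, 0.490 and 0.569 FPKM in fl/fl and 0.0846, 0.195 and 0.166 in ΔIEC replicates 1, 2 and 3. It lay below that filter, and its adjusted p without the filter was 0.123. All 8 epithelial markers passed the filter, with sums of 5936 to 6747 FPKM in fl/fl and 5889 to 6453 in ΔIEC. Of 10 leukocyte markers 2 passed, and their sum was 9.08 to 9.87 FPKM in fl/fl and 3.32 to 4.41 in ΔIEC, where S100a8 and S100a9 were listed at 0. Of 7 fibroblast markers 1 passed, with sums of 2.00 to 2.40 FPKM in fl/fl and 1.44 to 2.02 in ΔIEC. None of the markers of endothelium, smooth muscle, glia or adipocytes passed, and Sox10 was at 0. The summed level of 3 enteroendocrine markers was 53.3 to 56.2 FPKM in fl/fl and 63.6 to 81.7 in ΔIEC, and 2 of them passed. The part of such cells in the values below was not tested. In bulk RNA, fewer cells of a type and less RNA per cell cannot be told apart.

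Which receptors the epithelium expressed was asked first. A mean of at least 1 FPKM over the 6 samples was measured for 28 of the 44 receptors, and 14 reached 10 FPKM. The median of the 28 means was 11.0 FPKM, against 6.38 FPKM over all 11564 genes tested. Hnf4a, Nr4a1 and Vdr together held 49.5% to 53.2% of the summed receptor FPKM in each sample. The part of the 20 minutes in EDTA and DTT in the level of Nr4a1, an immediate early gene, was not tested. Hnf4a alone held 21.1% to 24.2%, and it ranked 239 of the 11564 genes by mean FPKM. The sensors held 23.3%, 26.3% and 26.8% of the sum in fl/fl and 23.1%, 27.2% and 24.3% in ΔIEC, so that their share overlapped between the genotypes.

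**Figure D1:**
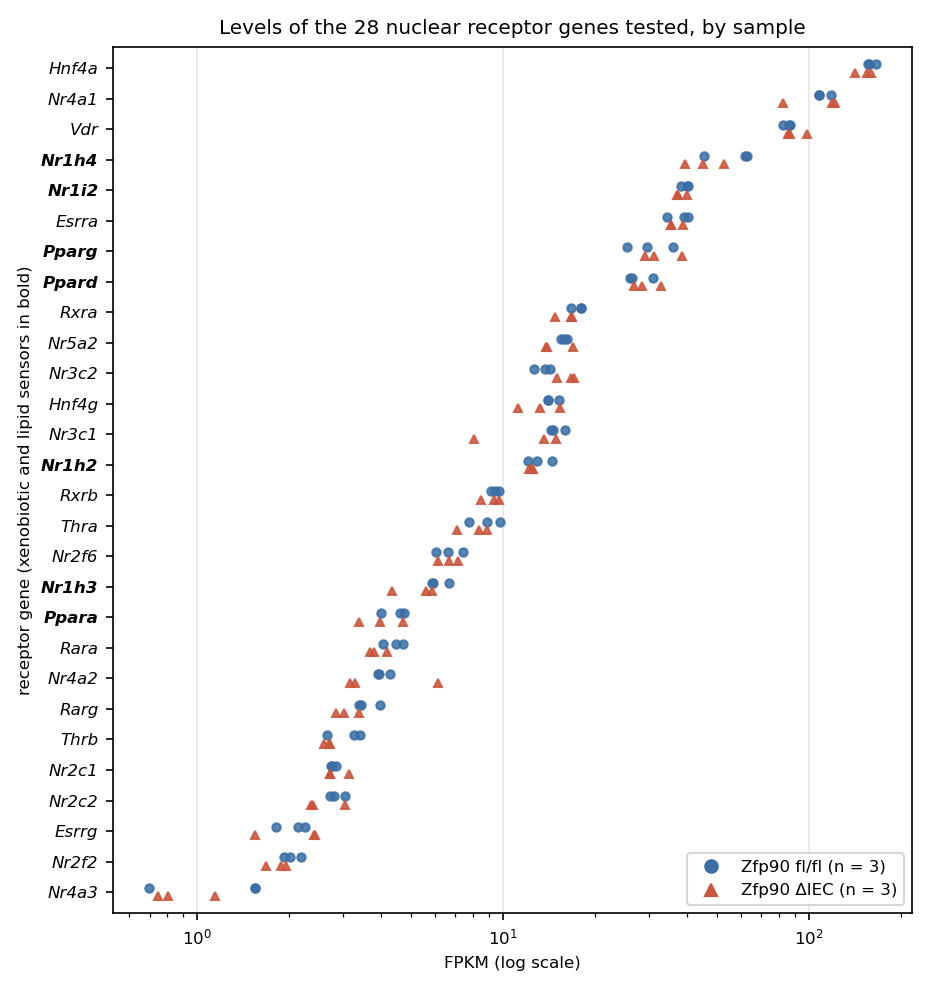
FPKM (x axis, log scale) of the 28 receptors tested, ordered by mean, with circles for the 3 fl/fl samples and triangles for the 3 ΔIEC samples. Levels run from about 1 FPKM (Nr4a3) to the 142 to 166 FPKM of Hnf4a, and the points of the 2 genotypes overlap for all but Nr3c2 and Rarg.

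Paralogs were mostly expressed at unequal levels. Of the HNF4 pair, Hnf4a had a mean of 160.0 ± 5.01 FPKM in fl/fl (SD, n = 3) against 14.5 ± 0.729 for Hnf4g. Of the NR4A genes, which respond within minutes to many stimuli, Nr4a1 had 111 ± 5.77 FPKM, Nr4a2 4.05 ± 0.200 and Nr4a3 1.27 ± 0.491. Esrra, a regulator of mitochondrial genes, had 38.0 ± 3.22 FPKM, while Esrrg had 2.07 ± 0.231 and Esrrb was measured at no more than 0.0271 in any sample. Among the RXRs, Rxra (17.6 ± 0.792 FPKM) exceeded Rxrb (9.42 ± 0.288), and Rxrg was listed at 0 in every sample. Of the retinoic acid receptors, Rara had 4.42 ± 0.331 FPKM and Rarg 3.60 ± 0.316, and Rarb rested on an estimated 1.01 to 9.09 fragments per sample. Both corticoid receptors were expressed at like levels in fl/fl, Nr3c1 at 14.97 ± 0.835 FPKM and Nr3c2 at 13.6 ± 0.818. The thyroid hormone receptors stood at 8.79 ± 0.997 FPKM for Thra and 3.11 ± 0.395 for Thrb. Both estrogen receptors lay below 1 FPKM, with 0.146 ± 0.0665 for Esr1 and 0.471 ± 0.0798 for Esr2.

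The other 16 receptors did not reach a mean of 1 FPKM and were not tested with the rest. Rxrg, Nr2f1, Nr2e1, Nr0b1 and Nr0b2 were listed at 0 in all 6 samples, which does not show that they were absent. Another 6 had a mean above 0 and under 0.1 FPKM, namely Rora, Rorb, Rarb, Esrrb, Nr5a1 and Pgr. Nr5a1 and Pgr were above 0 in 1 sample each. The remaining 5 had means of 0.1 to 1 FPKM. Of these, Nr6a1 had 1.19, 0.996 and 0.992 FPKM in fl/fl and 0.928, 0.861 and 0.715 in ΔIEC, without overlap. Nr1i3, the xenobiotic receptor CAR, had 1.15, 0.714 and 1.31 FPKM in fl/fl and 0.950, 0.793 and 0.617 in ΔIEC. Its groups overlapped, and its exons overlap those of Tomm40l on the other strand, which had a mean of 6.25 FPKM. The labels name a strand-specific kit, but how the counting treated strand is not given in the sources used here. Esr2 had 0.526, 0.380 and 0.507 FPKM in fl/fl and 0.539, 0.558 and 0.614 in ΔIEC, without overlap. Rarb, near the floor, did not overlap either, with at most 0.0101 FPKM in fl/fl and 0.0139 to 0.0610 in ΔIEC. Its exons overlap those of Top2b on the other strand (mean 9.42 FPKM). The share of all genes below the filter without overlap was not computed. In a fit without the filter the adjusted p of these 11 genes above 0 was 0.499 or more, and the single unadjusted p under 0.05 was that of Nr2e3, a photoreceptor gene, at 0.049.

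The second question was whether the receptors differ between the genotypes. Of the 28 receptors tested, 0 passed an adjusted p under 0.05, where 0.199% of all genes tested did. At an unadjusted p under 0.05, 1 receptor (Nr3c2) passed, where 14.6% of all genes tested did. With 1 sample left out, 1 to 5 receptors passed, 5 of them without ΔIEC replicate 1 and 3 without fl/fl replicate 3 or ΔIEC replicate 2. Groups did not overlap for 1 receptor that was higher in ΔIEC (Nr3c2), where 8.73% of all genes were, and for 1 that was lower (Rarg), where 12.6% were. In 22 receptors the difference was negative and in 6 positive. With the scaling of samples by median ratios or quantiles, 20 were negative, and without ΔIEC replicate 2, 20 were negative. Over all genes tested, 57.2% were negative, and 51.2% after median ratio scaling. The median difference in log2(FPKM + 1), ΔIEC minus fl/fl, was -0.08 over the receptors and -0.02 over all genes, and the median size regardless of sign was 0.10 and 0.09.

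The intervals show what these 6 samples can resolve. For all 28 receptors the 95% interval of the fold difference in FPKM + 1 lay between 0.5 and 2, and for 13 it lay between 0.8 and 1.25. Those 13 include Hnf4a (log2 difference -0.07, 95% interval -0.23 to 0.08), Vdr (0.08, -0.08 to 0.25), Nr1i2 (-0.05, -0.18 to 0.08) and Rxra (-0.12, -0.29 to 0.04). The interval was wide for Nr3c1 (-0.79 to 0.16), Nr1h4 (-0.66 to 0.06), Nr4a2 (-0.48 to 0.47) and Nr4a3 (-0.66 to 0.18). Within a receptor, the highest of the 6 samples exceeded the lowest by 1.08-fold to 2.22-fold, with a median of 1.31-fold, and the median over all genes tested was 1.28-fold. The lowest sample was ΔIEC replicate 2 for 10 of the 28 receptors and ΔIEC replicate 1 for 7.

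**Figure D2:**
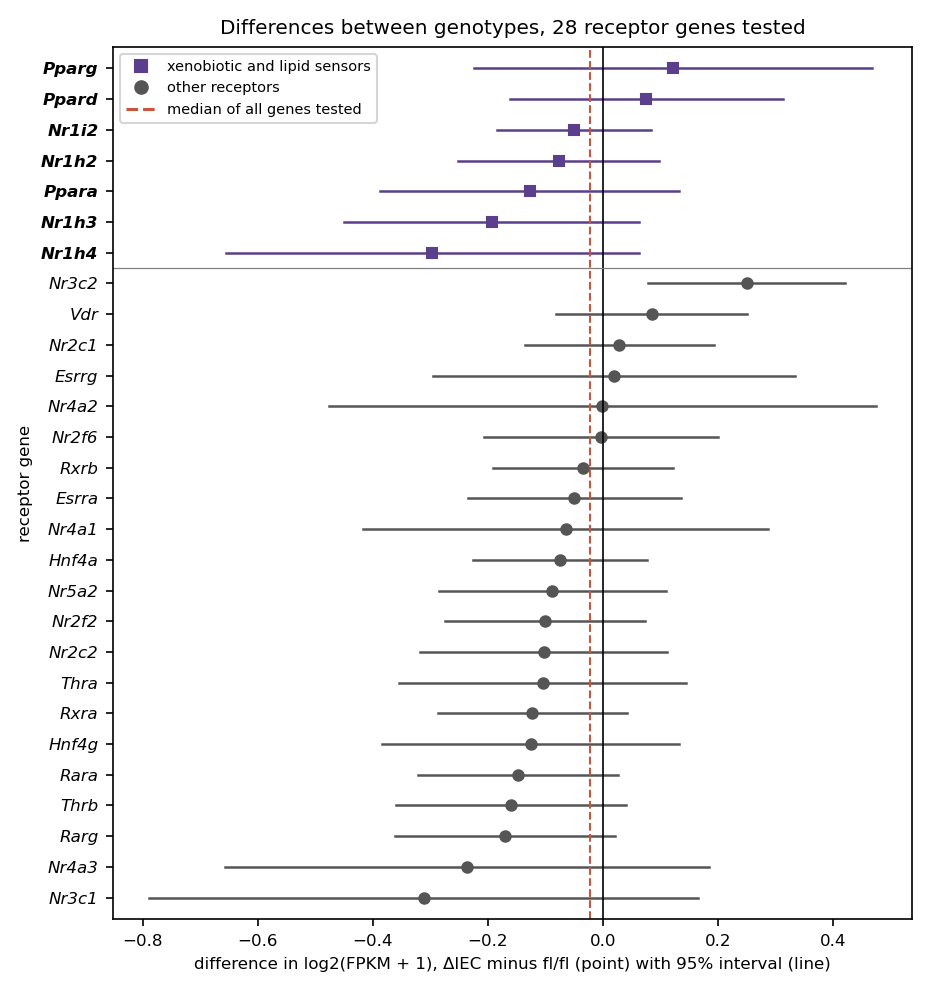
Difference in log2(FPKM + 1) between 3 ΔIEC and 3 fl/fl samples (x axis, points) with its 95% interval (lines) for the 28 receptors tested, sensors as squares above and the others as circles below. The interval of Nr3c2 alone lies on one side of 0, and the dashed line marks the median of all genes tested, -0.02.

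The xenobiotic and lipid sensors were taken one by one. FXR (Nr1h4, ENSMUSG00000047638), the bile acid sensor, had 45.5, 62.8 and 61.9 FPKM in fl/fl and 39.5, 52.7 and 45.3 in ΔIEC. Replicate 1 of fl/fl lay among the ΔIEC values, and the other fl/fl samples lay above all of them. The difference was -0.30 (standard error 0.152, limma adjusted p = 0.424, range over the alternatives 0.165 to 0.677). LXRβ (Nr1h2), an oxysterol sensor found in most tissues, had 12.9, 12.1 and 14.5 FPKM in fl/fl and 12.5, 12.6 and 12.1 in ΔIEC, a narrow range within that of fl/fl. LXRα (Nr1h3), which governs cholesterol efflux, had 6.69, 5.85 and 5.90 FPKM in fl/fl and 4.34, 5.88 and 5.61 in ΔIEC. Here ΔIEC replicate 1 was the lowest sample, ΔIEC replicate 2 lay among the fl/fl values, and the difference was -0.19 (95% interval -0.45 to 0.06).

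PXR (Nr1i2), which switches on detoxification genes, had 38.1, 40.3 and 40.1 FPKM in fl/fl and 37.1, 37.3 and 40.0 in ΔIEC. These 6 values lay within 1.08-fold of each other, and its paralog CAR stood at about 1 FPKM. Of the PPARs, Pparg, active in the differentiated cells of the colon surface, had 25.5, 35.9 and 29.7 FPKM in fl/fl and 29.1, 38.6 and 31.3 in ΔIEC. In both genotypes replicate 2 was the highest. Ppard, found in most tissues, had 26.0, 26.5 and 31.1 FPKM in fl/fl and 26.9, 28.4 and 33.01 in ΔIEC, with replicate 3 the highest in both. Ppara, which drives fatty acid oxidation in liver, was lower at 4.46 ± 0.404 FPKM in fl/fl and 4.01 ± 0.667 in ΔIEC. The differences were 0.12 for Pparg (95% interval -0.22 to 0.47), 0.08 for Ppard (-0.16 to 0.31) and -0.13 for Ppara (-0.39 to 0.13). The sign of Ppard turned when ΔIEC replicate 3 was left out (-0.01).

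Set beside each other, 7 of 8 sensors and 21 of 36 other receptors were tested. The median difference was -0.08 for the sensors and -0.09 for the others, and without ΔIEC replicate 2 it was -0.04 and -0.05. The median size of the difference was 0.12 in the sensors and 0.10 in the others. No sensor and no other receptor was called, and no difference between the 2 classes was tested.

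Among the other receptors, the 2 corticoid receptors had differences on either side of 0. The mineralocorticoid receptor (Nr3c2, ENSMUSG00000031618), through which aldosterone raises sodium uptake in the colon, had 14.3, 13.8 and 12.7 FPKM in fl/fl and 16.7, 15.1 and 17.1 in ΔIEC. All 3 ΔIEC samples lay above all 3 fl/fl samples. The mean was 13.6 ± 0.818 in fl/fl and 16.3 ± 1.09 in ΔIEC (SD, n = 3 each), a log2 difference of 0.25 with a standard error of 0.072 and a 95% interval of 0.08 to 0.42. Its unadjusted p was 0.011, and its limma adjusted p of 0.199 did not pass (range over the alternatives 0.162 to 0.425). The glucocorticoid receptor (Nr3c1) had 15.9, 14.6 and 14.3 FPKM in fl/fl and 14.96, 8.08 and 13.7 in ΔIEC. Only ΔIEC replicate 2 lay far below the rest, and the difference of -0.31 had a standard error of 0.201 (adjusted p = 0.531).

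**Figure D3:**
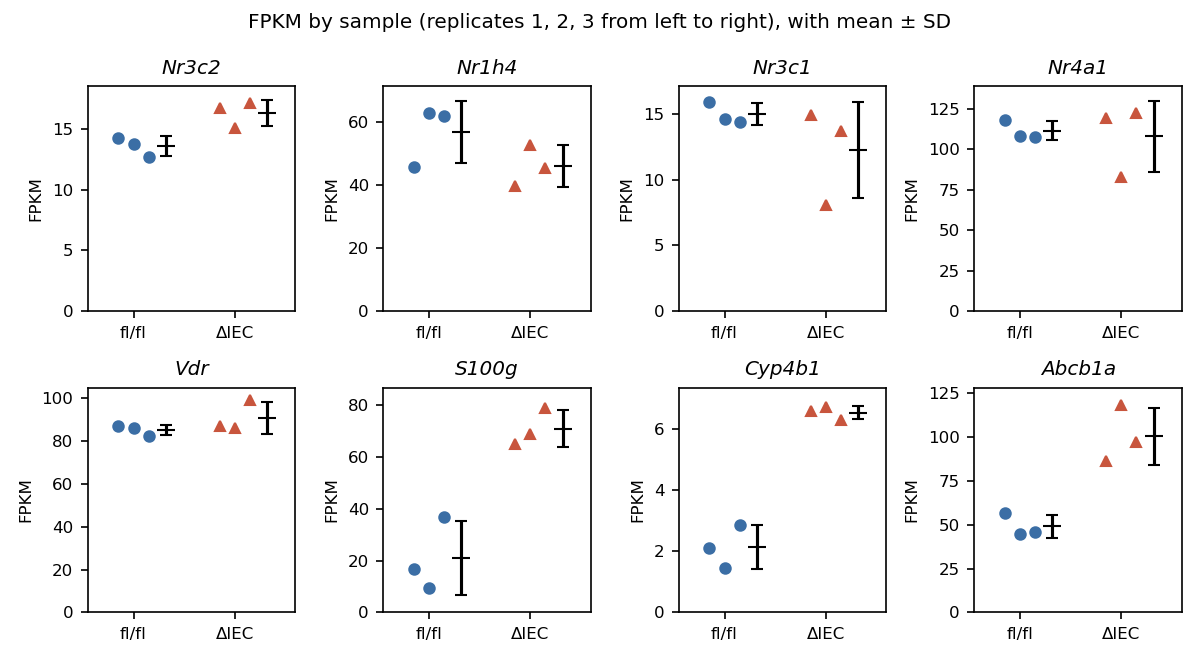
FPKM (y axis, from 0) of 5 receptors and 3 target genes in the 3 fl/fl samples (circles) and the 3 ΔIEC samples (triangles), with mean and SD beside them (bars). Nr3c2, S100g, Cyp4b1 and Abcb1a do not overlap between genotypes, while Nr1h4, Nr3c1, Nr4a1 and Vdr do, and ΔIEC replicate 2 is the lowest sample for Nr3c1 and Nr4a1.

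VDR, the receptor of active vitamin D, had 87.0, 86.2 and 82.5 FPKM in fl/fl and 86.9, 85.9 and 99.1 in ΔIEC. The first pair of ΔIEC samples lay among the fl/fl values, and only replicate 3 exceeded them. Thra had 9.76, 8.86 and 7.76 FPKM in fl/fl and 8.38, 7.07 and 8.88 in ΔIEC. It overlaps the clock gene Nr1d1 on the other strand, whose mean was 27.9 FPKM. Thrb had 3.11 ± 0.395 FPKM in fl/fl and 2.67 ± 0.0614 in ΔIEC, a log2 difference of -0.16 (95% interval -0.36 to 0.04).

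Of the RXRs, the common partners, Rxra had 16.7, 18.1 and 18.1 FPKM in fl/fl and 14.8, 16.8 and 16.7 in ΔIEC. Replicate 1 of fl/fl fell among the ΔIEC values and the others lay above them. Rxrb had 9.12, 9.45 and 9.69 FPKM in fl/fl and 9.70, 9.39 and 8.47 in ΔIEC, and the sign of its difference turned without ΔIEC replicate 3 (0.02). Rarg, a retinoic acid receptor of epithelia, had 3.96, 3.44 and 3.39 FPKM in fl/fl and 2.85, 3.39 and 3.02 in ΔIEC. Its groups did not overlap, but fl/fl replicate 3 and ΔIEC replicate 2 were equal to 3 digits, and its unadjusted p was 0.074 (difference -0.17, adjusted p = 0.396). Rara, its widely expressed paralog, had a log2 difference of -0.15 (95% interval -0.32 to 0.03).

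HNF4α, a receptor that maintains the enterocyte program, had 157, 166 and 157 FPKM in fl/fl and 142, 159.6 and 155 in ΔIEC. The groups overlapped, with ΔIEC replicate 1 the lowest. HNF4γ (Hnf4g), its paralog of the gut, had 14.0, 15.3 and 14.1 FPKM in fl/fl and 15.3, 11.2 and 13.2 in ΔIEC, with the highest and the lowest sample both in ΔIEC. Nr5a2, which acts in crypt renewal and local steroid synthesis, had 16.3, 15.5 and 15.8 FPKM in fl/fl and 16.9, 14.0 and 13.9 in ΔIEC. A pair of ΔIEC samples lay below fl/fl and the other above it (difference -0.09, 95% interval -0.29 to 0.11).

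Nr4a1, an immediate early gene, had 118, 108 and 108 FPKM in fl/fl and 119, 82.6 and 122 in ΔIEC. Replicate 2 of ΔIEC was the lowest and the other ΔIEC samples the highest, and the sign of the difference turned from -0.06 to 0.12 without that sample. Nr4a2 had 4.05 ± 0.200 FPKM in fl/fl and 4.21 ± 1.69 in ΔIEC, where replicate 1 stood at 6.15. Nr4a3 had 1.27 ± 0.491 FPKM in fl/fl and 0.898 ± 0.218 in ΔIEC.

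Esrra had 34.3, 39.2 and 40.4 FPKM in fl/fl and 35.5, 38.9 and 35.4 in ΔIEC, all within the range of fl/fl. Its exons overlap those of Trmt112 on the other strand (mean 7.87 FPKM). Nr2f6, a COUP-TF relative and mostly a repressor, had 6.63, 7.41 and 6.03 FPKM in fl/fl and 6.67, 7.16 and 6.16 in ΔIEC. Each ΔIEC value lay within the range of fl/fl. The 95% interval of the difference was -0.21 to 0.20, and its sign turned under quantile normalization (0.02), median ratio scaling (0.02) and without fl/fl replicate 2 (0.06) or ΔIEC replicate 3 (0.04). The last of the receptors tested, Esrrg, Nr2c1, Nr2c2 and Nr2f2, had means of 1.84 to 2.86 FPKM in either genotype and differences of -0.10 to 0.03.

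The other genes of the pathways were described from 11 lists of coregulators, ligand enzymes and target genes, 152 genes in all, of which 109 were tested. At an adjusted p under 0.05, 1 of the 109 was called higher, where 0.0692% of all genes tested were, and 0 were lower. At an unadjusted p under 0.05, 30 of the 109 were higher, where 6.56% of all genes were, and 7 were lower, where 8.09% were. The median difference of the 109 was 0.06. The lists were chosen with earlier results of these data known, so these shares are descriptions and no list was tested as a whole.

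**Figure D4:**
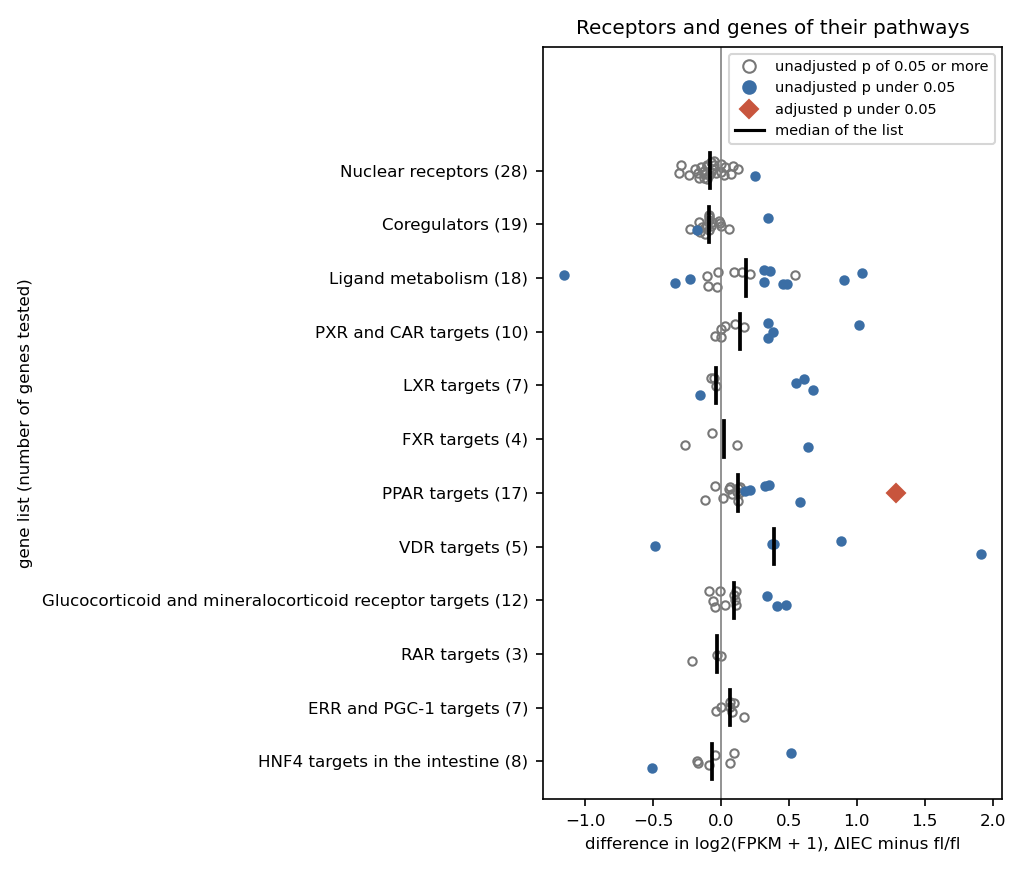
Difference in log2(FPKM + 1), ΔIEC minus fl/fl (x axis), of each gene tested, in the receptors and 11 pathway lists (rows, number of genes tested in parentheses), with the median of each list as a bar. The receptors lie between -0.31 and 0.25, while the lists of their targets and ligand enzymes reach from -1.16 (Dhrs9) to 1.92 (S100g), and the diamond is Cyp4b1, the only gene shown with an adjusted p under 0.05.

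The coregulators are the proteins that receptors recruit. All 19 were tested, 0 were called, and their median difference was -0.09. Ncoa4 (20.9 ± 4.74 FPKM in fl/fl and 17.4 ± 0.328 in ΔIEC) and Tbl1x (15.6 ± 0.757 and 14.9 ± 1.38) had the highest levels. Tbl1xr1, part of the corepressor complex of NCoR, had 3.71, 3.22 and 4.04 FPKM in fl/fl and 4.35, 4.58 and 5.86 in ΔIEC, without overlap (difference 0.34, adjusted p = 0.252). The coactivator Ncoa1 had 7.32, 7.04 and 7.24 FPKM in fl/fl and 6.38, 5.74 and 6.69 in ΔIEC, also without overlap (-0.18, adjusted p = 0.305). The 2 genes thus lay on opposite sides of 0, and neither passed. Of the 19 coregulators, 1 was higher without overlap and 5 lower, where 8.73% and 12.6% of all genes tested were.

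Of 35 genes of ligand metabolism 18 were tested and 0 were called, with a median difference of 0.19. At an unadjusted p under 0.05, 7 of the 18 were higher and 3 lower, where 6.56% and 8.09% of all genes tested were. The median was 0.02 without the filter and 0.11 without ΔIEC replicate 2. The fatty acid binding protein Fabp2, which carries fatty acids inside enterocytes, had 168, 205 and 181 FPKM in fl/fl and 275, 456 and 331 in ΔIEC, without overlap (difference 0.91, adjusted p = 0.0995). Hsd17b2, which inactivates estradiol and testosterone, had 57.0, 61.4 and 65.5 FPKM in fl/fl and 84.2, 87.1 and 87.6 in ΔIEC. The ΔIEC values were the higher in every sample (0.49, standard error 0.0646, adjusted p = 0.0545, range over the alternatives 0.0411 to 0.163). Hsd11b2, which inactivates glucocorticoids and so keeps the mineralocorticoid receptor open to aldosterone, had 101, 135 and 119 FPKM in fl/fl and 94.3, 94.4 and 89.6 in ΔIEC. It lay lower in all 3 ΔIEC samples (-0.34, adjusted p = 0.209), while its receptor Nr3c2 lay higher in all 3.

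The retinoid enzymes of that list lay on both sides. Dhrs9, which oxidises retinol, had 4.53, 6.54 and 7.40 FPKM in fl/fl and 1.66, 2.46 and 2.42 in ΔIEC. These groups were far apart, but the adjusted p of 0.0664 did not pass (difference -1.16, standard error 0.174, range over the alternatives 0.0344 to 0.194). Rdh10, which makes retinal, had 6.32, 6.15 and 6.26 FPKM in fl/fl and 5.36, 5.05 and 5.14 in ΔIEC (-0.23, adjusted p = 0.134). Aldh1a1 and Rbp2, a retinal dehydrogenase and a retinol carrier, had positive differences of 0.32 and 0.36 with overlapping groups. The 4 other genes without overlap were higher in ΔIEC, with adjusted p of 0.166 to 0.395. They were Dio1 of thyroid hormone metabolism (0.45), Hsd3b2 of steroid synthesis (1.04), the carrier Fabp5 (0.32) and the retinol carrier Rbp4 (0.55). For Rbp4, ΔIEC replicate 1 had 4.96 FPKM, while replicates 2 and 3 had 2.04 and 2.09, against at most 1.83 in fl/fl. Its unadjusted p in the limma fit was 0.072. Of the 18 genes tested in this list, 6 were higher without overlap and 3 lower, where 8.73% and 12.6% of all genes tested were.

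Of 15 targets of PXR and CAR 10 were tested and 0 were called, with a median difference of 0.14 (0.08 without ΔIEC replicate 2 and 0.25 without ΔIEC replicate 1). Abcb1a, the efflux pump P-glycoprotein, had 56.3, 44.4 and 46.0 FPKM in fl/fl and 86.3, 118 and 96.8 in ΔIEC. It was the higher in all ΔIEC samples, by 1.02 on the log2 scale (standard error 0.136), and the adjusted p of 0.0547 did not pass in any of 12 alternatives (0.0555 to 0.163). Of the others, Sult1a1 (188 ± 33.3 FPKM in fl/fl and 244 ± 23.9 in ΔIEC) and Gstm1 (141 ± 5.63 and 144 ± 16.0) had the highest levels. Sult1a1, Ugt1a1 and Por, of drug conjugation and cytochrome P450 reduction, did not overlap either. They were higher by 0.38, 0.35 and 0.35 (limma adjusted p = 0.272, 0.134 and 0.161). Of the 10 genes tested, 4 did not overlap, all 4 higher in ΔIEC, where 8.73% of all genes tested were. Ugt1a1 shares exons with the other Ugt1a genes and Sult1a1 and Abcb1a have close paralogs, so reads could be split among them. Cyp3a25, below the filter, was listed at 0 in all 3 fl/fl samples and had 0.200, 0.222 and 0.231 FPKM in ΔIEC. These values rest on at most an estimated 13.5 fragments per sample, where an exact 0 cannot be told from a low level.

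Of 10 LXR targets 7 were tested, 0 were called, and the median difference was -0.04. Scd1, a desaturase of fatty acids, had 11.8, 15.4 and 12.9 FPKM in fl/fl and 23.1, 23.3 and 19.3 in ΔIEC, without overlap (0.68, adjusted p = 0.0798). Its more abundant paralog Scd2 lay on the other side of 0, with 245, 256 and 251 FPKM in fl/fl and 239, 222 and 213 in ΔIEC (-0.16, adjusted p = 0.308). Nceh1, a cholesterol ester hydrolase, was higher without overlap (0.55, adjusted p = 0.0927). Of the 7 LXR targets tested, 2 were higher without overlap and 1 lower, where 8.73% and 12.6% of all genes tested were. Lpcat3, a lipid remodelling enzyme with the next level after Scd2, had 25.1 ± 3.03 FPKM in fl/fl and 24.3 ± 1.26 in ΔIEC. Of 6 FXR targets 4 were tested, 0 were called, and the median of 0.02 ran from -0.14 without ΔIEC replicate 2 to 0.26 without ΔIEC replicate 1, so that its sign was not settled. The bile salt exporter subunits Slc51b (28.8 ± 3.37 and 32.04 ± 9.02 FPKM) and Slc51a (19.3 ± 0.829 and 18.9 ± 5.49) overlapped. The bile acid importer Slc10a2 had 4.53, 5.47 and 5.33 FPKM in fl/fl and 7.71, 8.13 and 9.76 in ΔIEC (0.64, adjusted p = 0.0681). The list was not divided by whether FXR raises or lowers a gene, so its median gives no direction of FXR action.

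Of 23 PPAR targets 17 were tested and 1 was called. Cyp4b1, a cytochrome P450 of the fatty acid hydroxylase family, had 2.10, 1.44 and 2.87 FPKM in fl/fl and 6.59, 6.71 and 6.30 in ΔIEC. It rose by 1.29 on the log2 scale in ΔIEC (standard error 0.156, adjusted p = 0.0434, limma), with no overlap. The call was lost in 8 of 12 alternatives, whose adjusted p ran from 0.0162 to 0.134, among them each sample left out except fl/fl replicate 3. In the list 15 differences were positive and 2 negative, with a median of 0.13, where 57.2% of all genes tested were negative. Of the 17, 10 did not overlap, all 10 higher, where 8.73% of all genes tested were. Cpt1a, the gate of fatty acid import into mitochondria, stood at 79.5 ± 1.89 FPKM in fl/fl and 86.4 ± 3.39 in ΔIEC. Pdk4, Acaa1b, Ehhadh and Acaa2, of fuel choice and fatty acid oxidation, were higher without overlap by 0.58, 0.32, 0.21 and 0.18 (adjusted p of 0.131 to 0.271).

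Of 7 VDR targets 5 were tested, 0 were called, and the median difference was 0.39. None of the 5 overlapped between the genotypes, 4 being higher in ΔIEC and 1 lower, where 8.73% and 12.6% of all genes tested were. S100g, the calcium carrier calbindin-D9k, had 16.8, 9.26 and 36.8 FPKM in fl/fl and 65.2, 68.9 and 79.2 in ΔIEC. The fl/fl samples varied among themselves, and the difference of 1.92 had a standard error of 0.422 (adjusted p = 0.121). Slc30a10, a manganese exporter, had 7.37, 6.55 and 10.4 FPKM in fl/fl and 14.6, 16.9 and 15.2 in ΔIEC (0.88, adjusted p = 0.0805). Without fl/fl replicate 3, the adjusted p was 0.0275 for S100g and 0.0204 for Slc30a10. The calcium pump Atp2b1 (0.39, adjusted p = 0.173) and Klk1 (0.38, adjusted p = 0.300), the most abundant of the list at 484 ± 35.7 FPKM in fl/fl and 637 ± 133 in ΔIEC, lay on the same side. Trpv6, the apical calcium channel, had 13.7, 11.9 and 9.74 FPKM in fl/fl and 7.63, 7.27 and 9.41 in ΔIEC, on the other side (-0.48, adjusted p = 0.183). Vdr itself had a difference of 0.08.

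Of 14 targets of the corticoid receptors 12 were tested, 0 were called, and the median difference was 0.10. Sgk1, the kinase that keeps the epithelial sodium channel at the surface, had 27.8, 28.6 and 25.1 FPKM in fl/fl and 37.7, 42.5 and 34.4 in ΔIEC (0.47, adjusted p = 0.0927). Fkbp5, a chaperone of these receptors, had 23.3, 29.0 and 24.3 FPKM in fl/fl and 35.8, 33.2 and 33.8 in ΔIEC (0.41, adjusted p = 0.117). Scnn1b, a subunit of that channel, had 1.12, 1.595 and 1.63 FPKM in fl/fl and 2.31, 1.82 and 2.15 in ΔIEC (0.34, adjusted p = 0.242). The groups of these 3 of the 12 did not overlap, all 3 higher in ΔIEC, where 8.73% of all genes tested were. Of the 12 differences, 8 were positive and 4 negative. Scnn1g, a further subunit of the channel below the filter, had 0.221, 0.298 and 0.171 FPKM in fl/fl and 0.410, 0.4996 and 0.545 in ΔIEC, also without overlap (unadjusted p = 0.0038 and adjusted p = 0.232 in the limma fit without the filter). The subunit Scnn1a, more abundant than Scnn1b and Scnn1g, had 22.7 ± 1.36 FPKM in fl/fl and 24.5 ± 0.815 in ΔIEC. Its groups overlapped (0.11, limma adjusted p = 0.479). Tsc22d3, Per1 and Dusp1 overlapped, and so did Atp1b1, a subunit of the sodium pump (390.1 ± 23.6 FPKM in fl/fl and 421 ± 20.5 in ΔIEC).

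In the last 3 lists 0 genes were called. Of 9 RAR targets 3 were tested, with a median of -0.03, and Cdx1, a homeobox factor of the intestine, had 114 ± 6.26 FPKM in fl/fl and 114 ± 5.503 in ΔIEC. Dhrs3, a retinal reductase, stood at 12.1 ± 1.07 and 11.8 ± 0.431 FPKM. Of 8 targets of the ERRs and PGC-1, genes of mitochondrial respiration, 7 were tested, with a median of 0.07 and a largest difference of 0.17. The most abundant, Atp5b of the ATP synthase, had 359 ± 16.7 FPKM in fl/fl and 377 ± 26.2 in ΔIEC, with overlap. Of 12 HNF4 targets 8 were tested, with a median of -0.06. Muc13, a mucin of the cell membrane, had 651, 645 and 699 FPKM in fl/fl and 484, 385 and 546 in ΔIEC, without overlap (-0.51, adjusted p = 0.137). The chloride exchanger Slc26a3 had 76.0, 76.8 and 89.9 FPKM in fl/fl and 108, 112 and 129 in ΔIEC, on the other side (0.52, adjusted p = 0.0873). Of the 8 HNF4 targets tested, 1 was higher without overlap and 1 lower, where 8.73% and 12.6% of all genes tested were. Vil1, an actin protein of the brush border, had 225 ± 13.5 FPKM in fl/fl and 241 ± 15.1 in ΔIEC.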

How the data were processed

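RNA from 6 colon epithelium samples, 3 per genotype, was sequenced in pairs. The deposited file of each sample holds 1 FPKM per mouse Ensembl gene, as computed by the authors. The unit was inferred from the methods and the values. The methods name TopHat, Cuffdiff and a human genome, while the submitters' processing notes name FastQC, STAR 2.5, Cuffnorm, DESeq 1.22.1 and mm9, and which steps made the files is not given in the sources used here. Of 52550 genes, 52403 had a symbol in GENCODE M21.

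The 11564 genes that reached 1 FPKM in no fewer than 3 samples entered the test, made on log2(FPKM + 1), so that differences of low genes are understated, with limma 3.58.1 (empirical Bayes with an intensity trend, all 6 samples, no covariate) in R 4.3.3 and Benjamini-Hochberg adjustment over all genes at 0.05. Named genes below the filter were taken from a fit without it. The script was tested on simulated data. Python 3.11.15 served for the tables (numpy 2.4.6, pandas 2.3.3) and the plots (matplotlib 3.10.9).

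The receptors, the gene lists and the rules were chosen with earlier results of these data known. Values per sample are given for receptors with a mean of at least 5 FPKM and for receptors past the threshold or with an unadjusted p under 0.05 and no overlap, and single values for paralogs. Pathway genes are named when past the threshold, when at an unadjusted p under 0.05 without overlap, or as the 2 most abundant of a list. Rarg, Nr6a1, Nr2e3, Cyp3a25, Aldh1a1, Rbp2, Rbp4, Scnn1g and others named beside these were added after their values were seen. The results of 3 genes that these rules name are not reported here.

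Depth was estimated from the size of the steps between low values, each worth 1 fragment; 62.5% to 69.2% of the values used lay within 0.1 of a whole number of fragments. Alternatives were a pseudocount of 0.1, no filter or a filter at 0.1 FPKM, quantile and median ratio scaling, a block for the replicate number, and each sample left out.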

Additional observations from a re-analysis of the deposited data

How the results depend on the processing

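The count of 0 receptors called held in all 12 alternatives to the test, and the medians of the sensors and of the other receptors moved by less than the spread between replicates in each. Over all genes, the 23 calls became 13 with a pseudocount of 0.1, 15 without the filter, 47 with the replicate number as a block and 10 to 21 when 1 sample was left out. The same replicate numbers correlated at 0.194, 0.11 and 0.0782 in their deviations from the group means, so the third pair did not reach 0.1 and the numbers were not taken as pairs, although every sample correlated best with its own number. At an unadjusted p under 0.05, 1 receptor became 2 with the block and 1 to 5 when 1 sample was left out. The receptors counted as expressed were 28 at a mean of 1 FPKM and 18 at 5 FPKM.

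Of the pathway lists, PPAR targets had 0 calls with a pseudocount of 0.1, without the filter and with the replicate block, and 0 to 1 when 1 sample was left out, with 1 only without fl/fl replicate 3. Ligand metabolism had 1 call under quantile normalization (Hsd17b2) and 1 with the replicate block (Dhrs9), HNF4 targets had 1 with the replicate block (Slc26a3), and PXR and CAR targets had 1 without the filter (Cyp3a25). VDR targets had 0 to 2 calls when 1 sample was left out, 2 without fl/fl replicate 3 (S100g and Slc30a10). When 1 sample was left out, the median of HNF4 targets ran from -0.10 to 0.029 (without ΔIEC replicate 1), that of FXR targets from -0.14 to 0.26, of LXR targets from -0.056 to 0.047, of RAR targets from -0.087 to 0.018 and of ERR targets from 0.038 to 0.11. Without the filter, the median of HNF4 targets was 0.0074 and that of ligand metabolism 0.020. With 1 sample left out, the differences ran from -0.00693 to 0.15 for Ppard, from -0.071 to 0.017 for Rxrb, from -0.066 to 0.063 for Nr2f6 and from -0.16 to 0.12 for Nr4a1. Nr2f6 turned to 0.019 under quantile normalization and 0.017 under median ratio scaling. The cause of these changes was not tested.

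Depth limits the receptors below 1 FPKM, where a value can rest on a few fragments and an exact 0 cannot be told from a low level. With 3 samples a genotype, a difference whose interval spans 0 was not detectable at this size and was not shown to be absent.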
